A study of Mus musculus with 6 samples.

Results

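The 10 genes described here encode proteins best known from the lining of blood vessels that blood stem and progenitor cells also make. They are the receptor kinases Tie1 and Tek, the Tek ligand Angpt1, and Emcn, Eng, Plvap, Pecam1, Egfl7, Robo4 and Esam. They were chosen by symbol as vascular genes that stem cells also make, with Angpt1 added as the Tek ligand, and all 10 were found among the 23420 genes of the count tables. RNA was sequenced from LSK cells, a bone marrow fraction sorted as lacking lineage markers and carrying Sca-1 and c-Kit, which contains the stem cells and the multipotent progenitors. The bcat(ex3)osb group had 3 mice whose osteoblasts, the cells that build bone, had permanently active β-catenin signalling, and the other group had 3 wild-type (WT) littermates. The bcat(ex3)osb animals are called mutant mice below. Each mouse gave 1 library. Which promoter restricted the change to osteoblasts, how old the mice were and of what strain is not stated in the labels, and only the LSK cells, not the osteoblasts, were sequenced here.

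Tek, also called Tie2, is a receptor tyrosine kinase activated by angiopoietin-1, the product of Angpt1, while Tie1 is its relative without a well-defined ligand of its own. In vessels this pair keeps the endothelium quiet and sealed. In marrow, Tek marks quiescent stem cells, and Angpt1 is made by stem and progenitor cells as well as by stromal cells and megakaryocytes. Endothelial and blood cells arise from a shared embryonic source and go on to share surface proteins and ETS-family transcription factors.

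Sequence was matched by symbol to RefSeq tables on GRCm38.p6, the assembly that mm10, the build of the files, also names. A window from 250 bases before to 50 bases after the annotated start was found for 6 of the 10 genes: Tie1, Tek, Emcn, Eng, Egfl7 (3 windows) and Robo4. The windows shown are those of the receptor pair and of Emcn, which with Tie1 had the lowest fold changes of the 10 genes. Capitals mark GGAA, the core of ETS-family binding motifs, on either strand (TTCC on the printed strand).
Tie1, chr4:118489800-118490099, minus strand: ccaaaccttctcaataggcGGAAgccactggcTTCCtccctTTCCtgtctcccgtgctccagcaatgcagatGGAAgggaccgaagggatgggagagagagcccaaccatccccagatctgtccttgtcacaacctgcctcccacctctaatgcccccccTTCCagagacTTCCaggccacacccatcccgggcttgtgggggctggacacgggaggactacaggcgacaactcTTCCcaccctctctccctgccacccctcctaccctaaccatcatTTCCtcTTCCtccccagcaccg
Tek, chr4:94739039-94739338, plus strand: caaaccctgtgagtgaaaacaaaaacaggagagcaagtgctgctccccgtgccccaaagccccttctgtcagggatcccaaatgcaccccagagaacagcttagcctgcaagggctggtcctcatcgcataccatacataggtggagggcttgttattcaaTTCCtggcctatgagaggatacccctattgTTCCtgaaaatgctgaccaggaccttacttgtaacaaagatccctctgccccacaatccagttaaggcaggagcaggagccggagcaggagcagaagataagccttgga
Emcn, chr3:137340828-137341127, plus strand: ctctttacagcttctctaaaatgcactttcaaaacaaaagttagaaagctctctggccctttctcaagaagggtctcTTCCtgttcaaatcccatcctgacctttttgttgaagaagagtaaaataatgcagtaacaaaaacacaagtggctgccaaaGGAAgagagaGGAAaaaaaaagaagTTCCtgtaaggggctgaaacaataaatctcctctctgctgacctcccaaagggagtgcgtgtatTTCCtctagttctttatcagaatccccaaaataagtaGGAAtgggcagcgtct

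The Tie1 window held 9 GGAA cores, the Emcn window 6 and the Tek window 2. Of 32851 RefSeq windows of 300 bases, 96.0% held at least 1, with a median of 3. As many as in Tie1 were found in 1.6% of windows, as many as in Emcn in 15.7%, and as many as in Tek in 84.6%. Eng and Robo4 had 4 each, and the 3 Egfl7 windows had 5, 4 and 1. The longer letters CGGAAG, which contain the core, were found among these windows in Tie1 alone, and in 16.9% of all windows. The letters AGATAA, a motif of Gata2 and its relatives, were found among them in Tek alone, and in 11.2% of all windows. Both strands were searched for each motif, and these matches describe letters only.

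Total counts lay between 15431235 and 19956774 per library. Mutant mouse 2 gave a library far from the other 5, at 109 on the first principal component (50.8% of the variance), where the other libraries lay between -49.9 and -4.91. The share of counts in genes shorter than 1000 bases was 14.3% for mutant mouse 2, 12.4% for WT mouse 2 and 6.38% to 8.67% for the others. Y-linked genes gave 3715 and 2841 counts in mutant mice 1 and 2 and 8 to 13 in the other libraries, so the mutant group held 2 males and 1 female and the WT group only females. All values below with a sex term or in females alone therefore rest on mutant mouse 3 as the single mutant compared with WT. The sort markers were present: Kit averaged 520.2 ± 192 CPM (counts scaled to library size, with TMM factors) in mutant and 682 ± 341 CPM in WT mice, and Ly6a, which encodes Sca-1, 74.4 ± 7.87 and 155 ± 6.75 CPM (SD, n = 3 each). The engineered allele acts in osteoblasts, so Ctnnb1 in LSK cells is no check of the labels; it had a log2 fold change of -0.35 ± 0.25 (SE).

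All 10 genes had counts in all 6 libraries, and their levels spanned from 0.55 to 331 FPKM (the deposited value, scaled to gene length and library size). By mean FPKM in WT mice the order was Egfl7 (211 ± 44.3), Angpt1 (61.8 ± 12.4), Eng (37.5 ± 5.83), Pecam1 (27.6 ± 8.46), Esam (22.1 ± 5.92), Robo4 (15.7 ± 6.69), Emcn (15.7 ± 5.30), Tie1 (8.04 ± 4.34), Plvap (4.51 ± 0.62) and Tek (2.86 ± 2.37; SD, n = 3). Egfl7, a secreted vascular protein, lay above Angpt1, Angpt1 above Eng and Tie1 above Plvap in the WT mice with no overlap. The other neighbours in that order overlapped over the mice. In mutant mice Egfl7 (236 ± 82.2 FPKM) and Angpt1 (43.8 ± 14.0 FPKM) again led and Tek (1.73 ± 1.06 FPKM) was again last, with Pecam1 before Eng and Robo4 before Esam. Among genes with a count, mean WT FPKM placed Egfl7 at percentile 97.6, Angpt1 at 88.8 and Tek at 40.2.

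Many markers that define endothelium were at or near 0, and a few were not. Of 23 endothelial markers, Sox17 and Gpr116 had no count in any library, Cdh5 (VE-cadherin) had 16 counts or fewer in each and Kdr (the VEGF receptor 2) 26 or fewer. Lyve1, Stab1, Stab2, Nos3 and Gpihbp1 had 25 or fewer. The adhesion receptor gene Eltd1 was abundant, at 229 FPKM on average in WT mice, and did not stand apart by genotype (log2 fold change -0.07 ± 0.30, SE). Ramp2, a partner of an adrenomedullin receptor, averaged 6.68 FPKM and Ecscr, an endothelial surface protein, 6.54 FPKM in WT mice, both above Plvap and Tek. Without Eltd1, a choice made after its values were seen, the other 22 markers summed to 25.1 to 33.9 CPM in mutants against 27.1 to 38.7 CPM in WT mice, and 14 of them stayed below 1 FPKM in all libraries. Their median FPKM per library was 0.04 to 0.23, while the median of the 10 genes was 9.78 to 25.8. Over the 12 endothelial markers with enough counts to test, 0 were called, 5 had a positive and 7 a negative log2 fold change, and the median was -0.03. Of these 12, Clec14a, an endothelial surface lectin, had all mutant values below WT (17, 7 and 9 counts against 43, 31 and 111). Among markers with too few counts to test, Stab2 was lower in each mutant mouse (3, 0 and 3 counts against 25, 5 and 23). Cdh5 was higher in each (13, 16 and 6 against 4, 0 and 0), as was Nos3 by CPM (5, 2 and 1 counts against 1, 0 and 0). The part of endothelial RNA in the levels of the 10 genes was not tested.

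**Figure D1:**
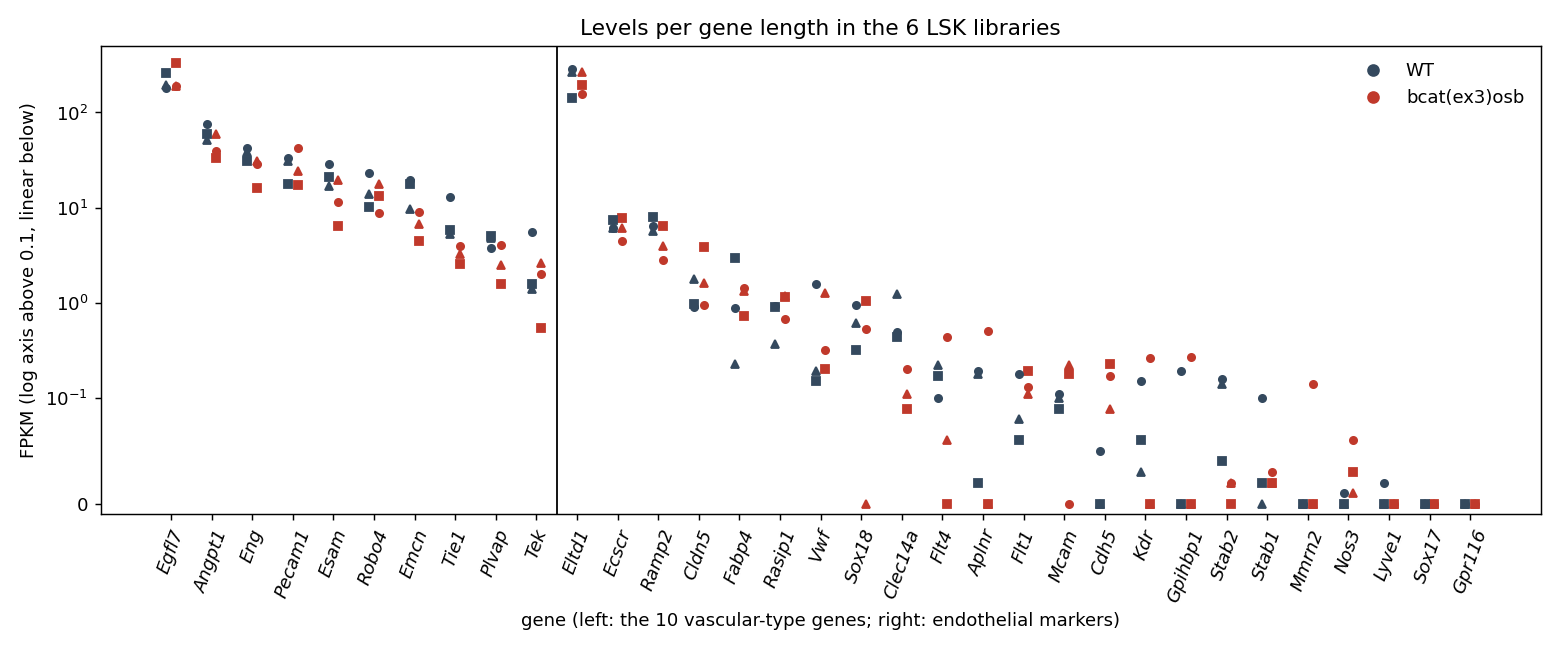
Deposited FPKM of the 10 genes (left of the line) and of 23 endothelial markers (right) in each library, on an axis that is logarithmic above 0.1 and linear below. Circles, squares and triangles are mice 1, 2 and 3 of each genotype; most markers lie below the 10 genes, but Eltd1 (229 FPKM in WT mice), Ramp2 (6.68) and Ecscr (6.54) exceed Plvap (4.51) and Tek (2.86).

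The comparison of mutant with WT mice asks how the genes differ in LSK cells when the niche cell, not the blood cell, carries the change. Tie1 and Emcn were lower in each mutant mouse than in each WT mouse, by a fitted factor of 0.43 and 0.45, and Eng also did not overlap (0.70). None of the 10 genes passed the threshold over all 12653 genes tested (edgeR quasi-likelihood test, Benjamini-Hochberg adjusted p under 0.05). Nor did any other gene: 0% were called higher and 0% lower, and the smallest adjusted p of the fit was 0.292. DESeq2 called 0 of the 10 either, beside 0.798% of all genes higher and 0.537% lower, and limma-voom called 0% in each direction. At an unadjusted p under 0.05, 2 of the 10 were lower and 0 higher, where 3.13% of all genes were lower and 3.43% higher. For 3 of the 10 all mutant values lay below all WT values and for 0 above, beside 7.67% and 6.89% of all genes. The log2 fold change was negative for 8 of the 10, with a median of -0.59, and negative for 49.7% of all genes, with a median of 0.0022. The median of the 10 was -0.31 without mutant mouse 2, -0.36 without WT mouse 1, -0.17 with a sex term and -0.19 in females alone. The last 2 values rest on mutant mouse 3, the only female mutant. In bulk RNA, fewer cells that carry a transcript and less of it per cell cannot be told apart.

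**Figure D2:**
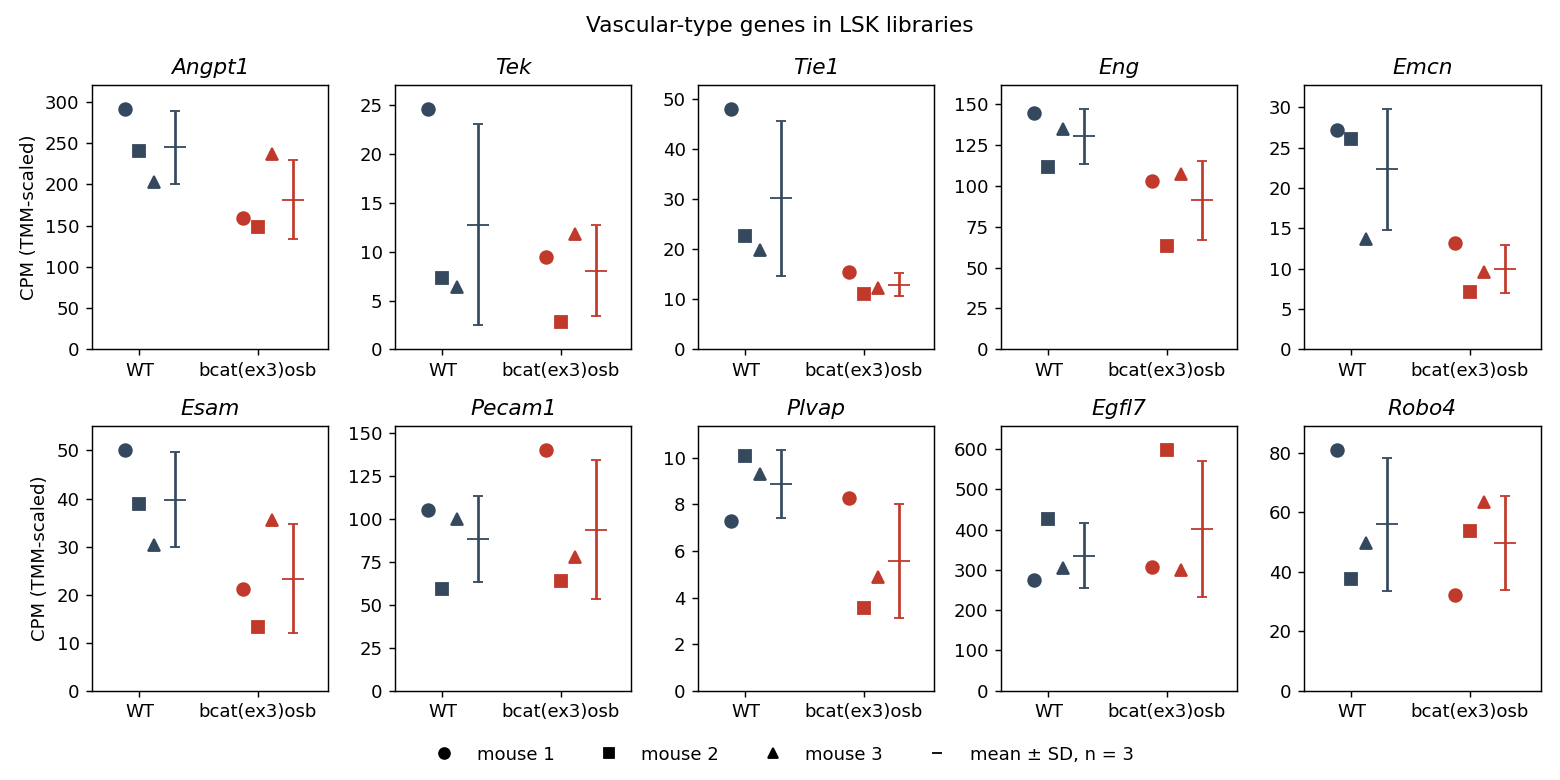
TMM-scaled CPM of each gene by genotype, with 1 point per mouse (circle, square and triangle for mice 1, 2 and 3) and the mean ± SD beside them (n = 3). The mutant points of Tie1, Emcn and Eng lie below all WT points, while those of the other 7 genes overlap them.

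The ligand Angpt1 (chromosome 15, 42424667 to 42676977, minus strand) was at 159, 148 and 237 CPM in the mutants (mice 1, 2, 3) and at 291, 240.3 and 203 CPM in the WT animals (mice 1, 2, 3). Mutant mouse 3 lay inside the WT range, and the other mutant mice lay below it. The means were 182 ± 48.1 and 245 ± 44.4 CPM, with a log2 fold change of -0.43 ± 0.24 (SE, edgeR adjusted p = 0.820). A fit with a sex term gave -0.05, and leaving out mutant mouse 3 gave -0.67. In GENCODE M21, 737 of 5205 exonic bases of Angpt1 are shared with the antisense gene Gm17473, and whether the counting used strand is unknown from the labels, so reads there cannot be told apart.

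Its receptor Tek (chromosome 4, 94739086 to 94874976, plus strand) was at 9.48, 2.84 and 11.9 CPM in the mutants (mice 1, 2, 3). In the WT animals (mice 1, 2, 3) it was at 24.6, 7.35 and 6.37 CPM. WT mouse 1 was highest and mutant mouse 2 lowest, and mutant mice 1 and 3 lay above WT mice 2 and 3. The value of mutant mouse 2 rested on 44 counts (95% exact Poisson interval 32.0 to 59.1, counting error only), and that of WT mouse 1 on 508 (465 to 554). The log2 fold change was -0.66 ± 0.67 (SE, adjusted p = 0.907 by edgeR). Without WT mouse 1 it was 0.23, and without mutant mouse 2 it was -0.26, so its direction rested on WT mouse 1. A fit with a sex term gave -0.11, and leaving out mutant mouse 3 gave -1.05. Per gene length, Angpt1 exceeded Tek in every library, by 13.5-fold (WT mouse 1) to 59.7-fold (mutant mouse 2).

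Tie1 (chromosome 4, 118471191 to 118489849, minus strand) was at 15.5, 11.1 and 12.2 CPM in the mutants (mice 1, 2, 3). In the WT animals (mice 1, 2, 3) it was at 47.9, 22.7 and 19.8 CPM. The mutant mice lay close together and below all WT mice, and WT mouse 1 was far above the others. The means were 12.9 ± 2.26 and 30.1 ± 15.5 CPM, with a log2 fold change of -1.22 ± 0.37 (SE, unadjusted p = 0.0113 and adjusted p = 0.550 by edgeR). Without WT mouse 1 it was -0.72, and leaving out mutant mouse 2 gave -1.12. A fit with a sex term, in which mutant mouse 3 alone carries the genotype among females, gave -1.31. Tie1 lay above Tek per gene length in every library, by 1.23-fold to 4.69-fold.

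Emcn (chromosome 3, 137341062 to 137431069, plus strand) encodes endomucin, a mucin-like sialoglycoprotein of veins and capillaries that is also on stem cells. It was at 13.1, 7.16 and 9.65 CPM in the mutants (mice 1, 2, 3) and at 27.2, 26.1 and 13.7 CPM in the WT animals (mice 1, 2, 3). WT mouse 3 was just above mutant mouse 1, and the other WT mice were well above all mutant mice. The means were 9.98 ± 3.00 and 22.3 ± 7.47 CPM, with a log2 fold change of -1.16 ± 0.36 (SE, unadjusted p = 0.0128 and adjusted p = 0.562 by edgeR). Over 21 other settings the value stayed between -1.42 and -0.85, with sex as a covariate at -1.21. None of these settings called the gene, with adjusted p-values from 0.145 (DESeq2) upward.

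Eng (chromosome 2, 32646595 to 32682669, plus strand) encodes endoglin, a co-receptor for BMP and TGF-β ligands that marks repopulating stem cells. It was at 103, 63.2 and 107 CPM in the mutants (mice 1, 2, 3) and at 144, 112 and 135 CPM in the WT animals (mice 1, 2, 3). Mutant mouse 2 was lowest by a wide margin, and mutant mouse 3 came close to WT mouse 2. The means were 91.0 ± 24.2 and 130.2 ± 16.7 CPM (log2 fold change -0.52 ± 0.24, SE, edgeR adjusted p = 0.781). The value was -0.31 when mutant mouse 2 was left out and -0.28 with a sex term in the fit. Eng shares 61 of 4048 exonic bases with Fpgs on the opposite strand.

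The junction proteins differed from each other. Esam, an adhesion molecule of endothelial tight junctions and platelets that is used to sort stem cells (chromosome 9, 37528089 to 37538319, plus strand), was at 21.2, 13.3 and 35.5 CPM in the mutants (mice 1, 2, 3). In the WT animals (mice 1, 2, 3) it was at 50.05, 38.8 and 30.4 CPM, so mutant mouse 3 lay inside the WT range and the other mutant mice below it. Its log2 fold change was -0.77 ± 0.37 (SE, edgeR adjusted p = 0.789), and -0.16 with sex as a covariate. It was -0.49 without mutant mouse 2 and -1.20 without mutant mouse 3. Pecam1, the homophilic adhesion receptor CD31 of endothelium, platelets and leukocytes (chromosome 11, 106654213 to 106715281, minus strand), was at 140.0, 63.7 and 77.7 CPM in mutant mice. In the WT animals (mice 1, 2, 3) it was at 105, 59.4 and 100.1 CPM. Here mutant mouse 1 was the highest of all 6, the groups overlapped, and the log2 fold change was 0.09 ± 0.34 (SE, adjusted p = 0.978 by edgeR). Leaving out each mouse in turn moved the Pecam1 value in every case by over 1.5 times, from -0.32 (mutant mouse 1) and -0.13 (WT mouse 2) to 0.30 (mutant mouse 2). Plvap, the protein of the diaphragms of endothelial pores (chromosome 8, 71497753 to 71511806, minus strand), was at 8.29, 3.55 and 4.88 CPM in the mutants against 7.27, 10.1 and 9.29 CPM in WT. Mutant mice 2 and 3 lay below the WT range and mutant mouse 1 inside it. Plvap rested on 55 to 191 counts a library and had a log2 fold change of -0.67 ± 0.41 (SE, edgeR adjusted p = 0.853), -0.43 without mutant mouse 2 and -1.08 without mutant mouse 1.

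Egfl7 (chromosome 2, 26581083 to 26592682, plus strand) was at 308, 597 and 301 CPM in the mutants (mice 1, 2, 3) and at 275, 427 and 304 CPM in the WT animals (mice 1, 2, 3). Mutant mouse 2 and WT mouse 2 were highest, the same libraries in which short genes took the largest share, and the other 4 lay between 275 and 308 CPM. Egfl7, at 1626 bases in the deposited table, is shorter than all but Emcn of the 10. Emcn, at 1461 bases, had its lowest value in mutant mouse 2 (7.16 CPM). In WT mouse 2 it was at 26.1 CPM, and only WT mouse 1 was higher (27.2 CPM). The part of gene length in the Egfl7 values was not tested. The log2 fold change was 0.26 ± 0.32 (SE, edgeR adjusted p = 0.915), -0.14 without mutant mouse 2, 0.14 without WT mouse 1, 0.42 without mutant mouse 1, 0.43 without mutant mouse 3, 0.47 without WT mouse 2 and 0.26 with the trend on gene length removed. Egfl7 shares 264 of 3581 exonic bases with Gm20532 on the same strand and 64 with Agpat2 on the other. Egfl7 also hosts the miR-126a hairpin (chromosome 2, 26591357 to 26591429, plus strand), which is intronic in its coding transcripts and is known for restraining stem cell cycling. Its mature 3p arm is shown with the seed, bases 2 to 8, in capitals.
mmu-miR-126a-3p: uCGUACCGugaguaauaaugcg
The hairpin's own entry had 0, 4 and 9 counts in the mutants (mice 1, 2, 3) and 6, 4 and 6 in WT mice, too few to test, and such a library does not measure the mature miRNA. A retained-intron transcript of Egfl7 also covers the hairpin in GENCODE M21.

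Robo4, a Roundabout receptor that stabilises vessels and helps stem cells lodge in the marrow (chromosome 9, 37401902 to 37414023, plus strand), was at 32.3, 53.6 and 63.3 CPM in the mutants (mice 1, 2, 3). In the WT animals (mice 1, 2, 3) it was at 80.8, 37.5 and 49.7 CPM. The groups overlapped, with the highest value in WT mouse 1 and the lowest in mutant mouse 1. The log2 fold change was -0.17 ± 0.35 (SE, edgeR adjusted p = 0.949), and 0.19 without WT mouse 1. It was 0.06 without mutant mouse 1, -0.38 without mutant mouse 3 and -0.39 without WT mouse 2. Its relative Robo3, 2021 bases away, had -0.88 ± 0.56, and Esam lies 114065 bases from Robo4 on the same chromosome.

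The 10 genes did not all move together over the libraries. Relative to each gene's WT mean, the median of the 10 was -0.47, -1.17 and -0.13 log2 units in the mutants (mice 1, 2, 3) and 0.32, -0.11 and -0.19 in the WT animals (mice 1, 2, 3). Mutant mouse 3 thus lay inside the WT range and mutant mouse 2 far below it. In mutant mouse 2, Tek was at -1.87, Emcn at -1.57, Esam at -1.55, Tie1 at -1.32, Plvap at -1.30 and Eng at -1.03, while Egfl7 was at 0.86 and Robo4 at 0.01. In WT mouse 1, Tek was at 1.23 and Tie1 at 0.78, and Plvap (-0.27) and Egfl7 (-0.26) were below their WT means. Only Tie1 and Emcn were below -0.6 in each of the 3 mutant mice. The spread over mice was widest for Tek (SD 1.098 log2 units in mutant and 1.07 in WT mice), and Tie1 had the smallest spread in the mutant group (0.25).

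**Figure D3:**
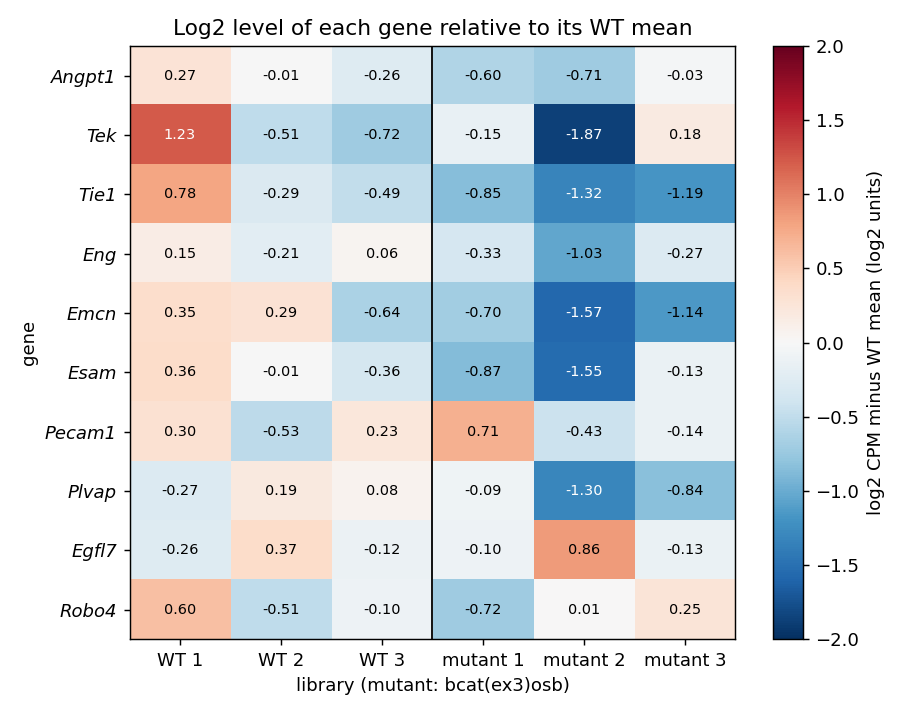
Log2 CPM of each gene minus its mean in WT mice, per library, with the value in each cell (blue lower, red higher). Tie1, Emcn, Eng, Esam, Angpt1 and Plvap have negative values in all 3 mutant libraries. Mutant mouse 2 is the lowest library for 7 of the 10 genes, and Egfl7 is red there.

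**Figure D4:**
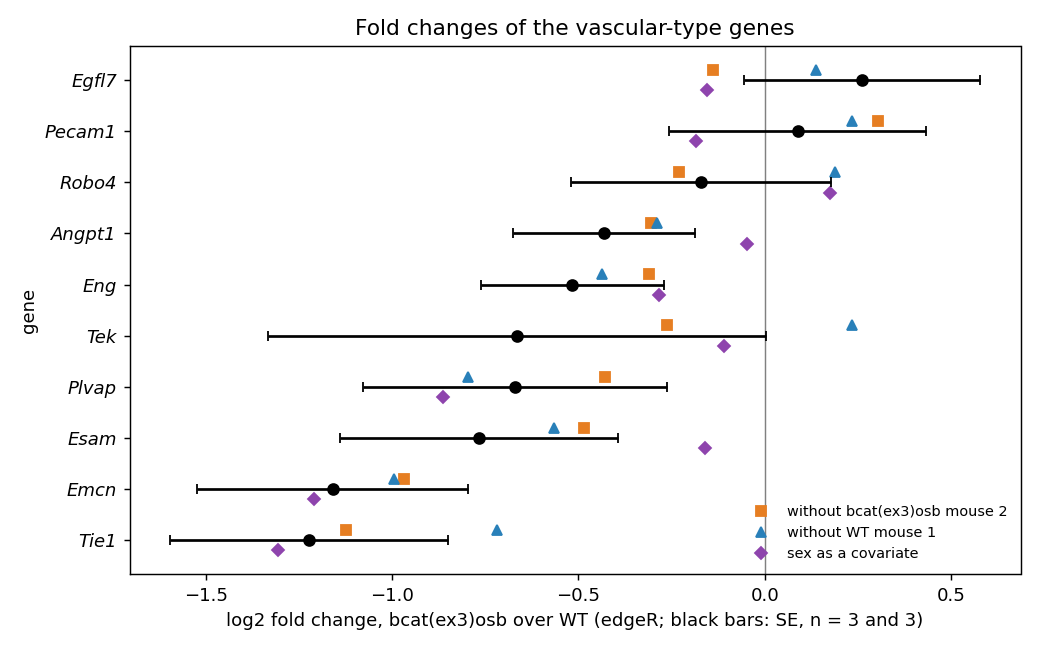
Log2 fold change of each gene, mutant over WT (black point, SE bar; edgeR, 3 mice per group), beside the value without mutant mouse 2, without WT mouse 1 and with sex as a covariate. Tie1 and Emcn stay negative in all of these, from -1.31 to -0.72. Eng, Esam, Angpt1 and Plvap also stay negative, while Tek, Robo4, Pecam1 and Egfl7 each change sign in at least 1.

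As a description, Pearson r of log2 CPM was taken over the 6 libraries of both genotypes together. Differences between libraries in genotype, sex and gene-length make-up, given above, are therefore part of each r. Of 45 gene pairs, 33 had a positive r, with a median of 0.43. The share over pairs of all tested genes was not computed. Angpt1 and Esam were the pair most alike (0.97), and Tie1 and Emcn had 0.89. Ligand and receptor, Angpt1 and Tek, had 0.79, and Tie1 and Tek 0.72. Egfl7 ran opposite to all 9 others, from -0.86 with Eng to -0.23 with Robo4. Among the pairs without Egfl7, 33 of 36 had a positive r. Of the other tested genes, predicted ones without a name left out, those most like Tie1 were Kif3b, Zfp157 and Zfp182, and those most like Tek were Gfod2, Prdm15 and Epb4.1l1. For Angpt1 they were Zfp458, Dach1 and Sytl4, and for Emcn they were Eno3, Nptxr and Jmjd1c. For Eng they were Ddx58, Zfp354c and Il27ra, and for Plvap Bst1, Nuf2 and Rad21. For Pecam1 they were Nlrp1b, Map3k14 and Smtn, and for Egfl7 Oxld1 and Rfc3. For Robo4 they were Timp2, Nudcd3 and Lrtm2, and for Esam Athl1, Hivep3 and Phf11b. These r values were 0.97 or higher over 6 libraries, picked out of 12653 genes.

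Other genes of the angiopoietin-Tie pathway showed no common direction. Of 20 listed, 14 could be tested, 0 were called in either direction, 8 had a positive and 6 a negative log2 fold change, and the median was 0.04. Dok2, an adaptor bound by Tek, was the tested gene without overlap (123.4 ± 6.08 CPM in mutants against 159.8 ± 23.9 CPM in WT mice, log2 fold change -0.37 ± 0.19). Foxo1, the transcription factor that Tek signalling holds in check through AKT, had -0.68 ± 0.30, and Akt1 and the PI3-kinase subunit Pik3r1 had 0.26 ± 0.19 and 0.27 ± 0.20. The Tek antagonist ligand Angpt2 had 22 counts or fewer in each library, Angpt4 had 1 count in all, and the phosphatase of the Tie receptors, Ptprb, 3.

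Receptors, ligands and SMAD proteins that act with endoglin split evenly, with 7 positive and 7 negative of 14 tested (17 listed), 0 called and a median of -0.0025. Smad1, which carries BMP signals, lay higher in all mutant mice (128 ± 4.39 against 101 ± 5.69 CPM, log2 fold change 0.34 ± 0.17, edgeR adjusted p = 0.789). Tgfb1 had 0.54 ± 0.22, Mmp14, which sheds endoglin, 1.26 ± 0.59, and the receptor Tgfbr1 -0.43 ± 0.35. The endothelial partner receptor Acvrl1 had 1 to 91 counts per library, and the ligands Gdf2 and Bmp10 had none. Of 20 junction and adhesion genes, Esam among them, 18 were tested, 0 were called, 7 were positive and 11 negative, and the median was -0.09. Itga2b, the platelet integrin CD41 that early progenitors also carry, lay higher in all mutant mice (log2 fold change 1.75 ± 0.38, edgeR adjusted p = 0.333), as did Cd47 (0.37 ± 0.19). F11r (-0.58 ± 0.23) and Jam2 (-1.72 ± 0.76), junctional adhesion molecules related to Esam, lay lower in all mutant mice, and Icam2 had -0.58 ± 0.26. Jam2 rested on few counts, 11, 2 and 10 in the mutants against 41, 14 and 28 in WT mice. The related Jam3 (-0.65 ± 0.57) overlapped between the groups. All 5 tested genes of 10 in the Slit-Robo list were negative, with overlap between groups in each and a median of -0.43: Robo3, Srgap1 (-0.76 ± 0.58), Srgap2 (-0.43 ± 0.33), Srgap3 (-0.30 ± 0.40) and Slit1.

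Transcription factors shared by endothelium and stem cells were near even: of 14 tested (15 listed) 6 were positive, 8 negative and 0 called, with a median of -0.03. Ets1 had a log2 fold change of -0.96 ± 0.46, Lmo2 -0.38 ± 0.20, Hhex 0.41 ± 0.20 and Gata2 0.50 ± 0.27, and Mef2c was the tested factor whose mutant values all lay below WT. Of 18 stem cell genes 5 were positive, 13 negative and 0 called, with a median of -0.34. Ly6a, Procr (the endothelial protein C receptor, -0.63 ± 0.25) and Mllt3 (-0.55 ± 0.22) lay lower in all mutant mice, and Hlf had -0.45 ± 0.30. WT mouse 1, the library highest in Tek and Tie1, was also highest of all 6 in Mecom (80.9 CPM against 17.9 to 40.8), Fgd5 (32.7 against 3.29 to 14.3) and Kit (1002 against 323 to 725 CPM). The part of stem cell content in the levels of the 10 genes was not tested. Of 10 genes of multipotent progenitors 4 were positive, 6 negative and 0 called (median -0.05), with Cd244 (0.66 ± 0.25) higher and Ccr9 (-2.33 ± 0.86) lower without overlap, and Dntt at -0.70 ± 0.60.

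Markers of other cells that make these proteins were examined beside them. Megakaryocyte and platelet markers, 16 listed and 11 tested, had 7 positive and 4 negative values, 0 called and a median of 0.34. Their sum was 192 to 303 CPM in mutants against 194 to 275 CPM in WT mice, and Gp6 was at 0 in all libraries. Selp (1.48 ± 0.31) was higher and Mmrn1 (-1.91 ± 0.82) lower without overlap, and Gp5 had 0.81 ± 0.52. Stromal and osteoblast markers, which would accompany Angpt1 from niche cells, summed to 229 to 256 CPM in the mutants and 154 to 192 CPM in WT, mostly Pdgfrb (0.90 ± 0.35) and Runx2 (0.38 ± 0.25). Of 18 such markers 7 were tested and 0 called (3 positive, 4 negative, median -0.20). Lepr and Lum had no count in 5 libraries, and Alpl (-2.64 ± 0.83) and Col1a2 (-1.12 ± 0.83) lay lower in all mutant mice. Of 14 macrophage markers 13 were tested, with 2 positive, 11 negative, 0 called and a median of -1.68. They summed to 157 to 217 CPM in mutants against 163 to 195 CPM in WT mice. The 2 positive genes, Csf1r (140 CPM in mutant mouse 1) and Cd68 (94.3 CPM in mutant mouse 2), were large parts of the mutant sums. Of the 13, 6 lay lower and 1 higher without overlap, beside 7.67% and 6.89% of all genes. Those lower were Cd5l (0 in the 3 mutant libraries), Vcam1 (-1.68 ± 0.57), C1qb (-2.01 ± 0.90), C1qa, C1qc and Emr1. Cd68 (1.24 ± 0.33) was the one higher. The part of platelet, stromal and macrophage RNA in the levels of the 10 genes was not tested.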

How the data were processed

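RNA of LSK cells was sequenced from 6 mice, 1 library each, with a stranded total RNA kit. Reads were handled with bcl2fastq 2.17, STAR 2.5.2b and featureCounts 1.5.0-p3 on build mm10, as listed in the submitters' processing notes. The deposited files hold raw counts of each gene and, beside them, gene length and the authors' FPKM. The labels state no annotation, strand setting or rule for multi-mapping reads.

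From the counts, filterByExpr (minimum count 10, minimum total 15) kept 12653 of 23420 genes. edgeR 4.0.16 (R 4.3.3) tested genotype with TMM scaling and its quasi-likelihood F test, adjusted over all tested genes at 0.05. SE came from F, and log2 CPM used a prior count of 1. Alternatives used DESeq2 1.42.0 and limma 3.58.1. Totals were 15431235 to 19956774 counts per library, and intervals cover counting error only. The test was tried on simulated counts.

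The 10 genes, the other lists and the tests were chosen with earlier results of these data known. From each list, up to 4 tested genes with the smallest unadjusted p were named, and for each of the 10 genes the 3 most like it; a few genes that these rules pick are not reported here. Other genes were named after their values were seen: Cdh5, Kdr, Eltd1, Ecscr, Mecom, Fgd5, Cd47, Jam3, Mef2c, Slit1, Vwf, Csf1r, C1qa, C1qc, Emr1 and those given by low counts.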

Additional observations from a re-analysis of the deposited data

How the results depend on the processing

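With 3 mice per group, an exact permutation test cannot go below 0.10, and low counts limit Tek, Plvap and miR-126a. None of the 10 genes was called under any of 21 other settings. Over all genes, DESeq2 called 101 higher and 68 lower, the length-trend fit 1 higher, and fits with 1 mouse left out 0 to 4 higher and 0 to 13 lower (1 and 13 without mutant mouse 1, 4 and 2 without mutant mouse 3). With the mouse number as a replicate block, 5 were called higher and 0 lower and the median of the 10 genes was -0.59. The block moved no call of the 10. With it the SE was 0.26 for Tie1 and 0.15 for Eng, against 0.37 and 0.24 in the main fit. For Plvap it was 0.44 against 0.41. Without both mice numbered 2 the median of the 10 genes was -0.44. Same-numbered mice had correlations of deviations of 0.11, 0.34 and 0.06, and 2 of 6 libraries correlated best with their own number. The numbers were therefore not taken to pair the mice. The highest of these, 0.34, belonged to the mice numbered 2, the libraries with the largest share of counts in short genes. The median of the 10 genes was -0.17 with a sex term and -0.19 in females alone, both resting on mutant mouse 3 as the only female mutant. The length-trend fit gave a negative sign to 39.3% of all genes, and log2(FPKM + 0.1) to 60.1%, against 49.7%. Leaving out 1 mouse gave medians from -0.66 to -0.31, with -0.31 without mutant mouse 2 and -0.36 without WT mouse 1; the cause was not tested. The count of genes without overlap, all lower, was 3 to 5 with each library left out, beside 9.39% to 17.5% of all genes.

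Tie1, Emcn, Eng, Esam, Angpt1 and Plvap were negative in each of the 21 settings. The signs of 4 genes turned. With each mouse left out, Tek ranged from -1.05 to 0.23, Pecam1 from -0.32 to 0.30, Egfl7 from -0.14 to 0.47 and Robo4 from -0.39 to 0.19. Tek was 0.23 without WT mouse 1. Robo4 was 0.06 without mutant mouse 1, 0.19 without WT mouse 1, 0.18 with a sex term, 0.16 in females and 0.025 with the length trend removed. Egfl7 was -0.14 without mutant mouse 2, -0.16 with a sex term and -0.18 in females. Pecam1 was -0.028 on log2(FPKM + 1), -0.030 on log2(FPKM + 0.1), -0.32 without mutant mouse 1, -0.13 without WT mouse 2, -0.18 with a sex term and -0.20 in females. The cause of these turns was not tested.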

Other observations

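Of 4 other vascular and platelet genes, Vwf overlapped between the genotypes, Mmrn1 was lower in each mutant mouse than in each WT mouse, and Itga2b and Selp were higher, none past the adjusted threshold. Vwf, the von Willebrand factor gene of endothelium, platelets and a platelet-biased stem cell class, reached 273 counts for WT mouse 1 and 198 for mutant mouse 3, against 21 to 53 for the rest. Mmrn1, which encodes a platelet and endothelial protein that binds factor V, was at 127, 38.7 and 45.4 CPM in the WT animals (mice 1, 2, 3). The mutants had 24.3, 2.32 and 29.2 CPM, with a log2 fold change of -1.91 ± 0.82 (SE, edgeR adjusted p = 0.752). Itga2b and Selp went the other way, at 45.7 to 126 and 17.9 to 37.2 CPM in mutant mice against 20.7 to 33.7 and 9.26 to 9.88 CPM in WT mice. All of these values were chosen after they were seen, and no explanation was tested.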
